A study of Mus musculus with 15 samples.

Results

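The T cell receptor complex and its coreceptors were followed through 10 genes of the 561 on the nCounter Mouse Immunology Panel, on which mRNA molecules are captured by probe pairs and their colour-coded barcodes counted without amplification. The 10 genes were chosen by name for their role in the receptor and in its first signalling steps. They are Cd3d, Cd3e and Cd247, which encode CD3 and zeta chains of the receptor, the kinase genes Lck and Zap70, the adaptor gene Lcp2, the coreceptor genes Cd4, Cd8a and Cd8b1, and the signal modulator gene Cd5. All 10 were among the 426 genes whose counts averaged 20 or more and were tested.

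RNA came from spleen cell suspensions of female C57BL/6J mice aged 6 to 8 weeks, after red blood cells had been lysed. Sham mice went through the procedure without burn or irradiation. WBIR mice received 9 Gy of whole-body ionizing radiation, and RCI mice received the same 9 Gy with a full-thickness burn over 20% of the body surface. In each injury a further group, WBIR+MSC-EVs and RCI+MSC-EVs, was given extracellular vesicles (EVs) of cultured C57BL/6J bone marrow mesenchymal stem cells (MSCs) intravenously 72 hours after injury, and spleens were taken 48 hours after that. The labels give PBS as the vehicle of RCI alone, while the study's text gives saline for untreated mice. Each of the 5 groups had 3 samples. The methods say only that samples were run in triplicate, and the study's figure legend gives n = 3 per experimental group for the WBIR spleen data. Neither states whether these are separate mice. The p-values measure the spread between these samples, which may in part be technical.

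The T cell receptor binds peptide held by MHC molecules but has no signalling tail of its own. Its signal passes through the CD3 and zeta chains, whose tails are phosphorylated by Lck and then bound by Zap70, which phosphorylates Lcp2 (SLP-76) so that further enzymes can assemble. CD4 and CD8 bind MHC class II and class I and bring Lck to the receptor, and CD5 dampens the signal. In the spleen CD3 chains mark T cells closely, whereas Lck, Zap70 and Cd247 are also used by natural killer (NK) cells, Lcp2 by NK cells, myeloid cells and platelets, Cd4 and Cd8a by subsets of dendritic cells, and Cd5 by a subset of B cells.

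Total counts per sample ranged from 90127 (WBIR+MSC-EVs replicate 1) to 598872. Counts below are raw barcode counts divided by a factor set by the 14 reference genes of the panel, called scaled counts. Log2 fold changes (log2FC) are relative to those reference genes, which did not move alike. With TMM scaling, which centres on the bulk of the genes, the median log2FC of all tested genes against Sham was higher by 0.71 for WBIR, 0.56 for WBIR+MSC-EVs, 0.54 for RCI and 0.37 for RCI+MSC-EVs. Sham replicate 2 stood apart from the other Sham samples. On the log2 scale it lay above their mean by 0.56 for the median tested gene, by 0.51 for Cd3e, 1.43 for Cd247, 1.43 for Cd8a, 2.01 for Zap70 and 2.14 for Lcp2. Values without it are given beside the main value for Cd247, Zap70, Cd8a, Lcp2 and some other genes. In these bulk samples fewer T cells and less RNA per T cell cannot be told apart.

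The genes lie on several chromosomes (mouse GRCm38.p6, RefSeq). Cd3d (chr9:44981769-44987052) and Cd3e (chr9:44998735-45009663) are neighbours, 11683 bases apart, as are Cd8b1 (chr6:71322788-71337492) and Cd8a (chr6:71373427-71379171), 35935 bases apart. Cd4 is at chr6:124864693-124888247, Cd247 at chr1:165779952-165871153, Zap70 at chr1:36761798-36782821, Lck at chr4:129548344-129573641, Lcp2 at chr11:34046928-34092281 and Cd5 at chr19:10718107-10739026. Start sites below are those of the RefSeq-based promoter set, and for Cd3d and Cd3e they lie inside the gene spans given above. Distances are counted from these start sites. The stretch from 250 to 53 bases before the start site is shown for Cd3d and Cd3e, whose counts moved nearly together, for Cd8a, which was among the members that fell most, and for Lcp2, the member that was not called in either injury. They are at chr9:44981536-44981733 (plus strand), chr9:45009664-45009861 (minus strand), chr6:71373177-71373374 (plus strand) and chr11:34046678-34046875 (plus strand), and are written 5′ to 3′ along the gene.
Cd3d: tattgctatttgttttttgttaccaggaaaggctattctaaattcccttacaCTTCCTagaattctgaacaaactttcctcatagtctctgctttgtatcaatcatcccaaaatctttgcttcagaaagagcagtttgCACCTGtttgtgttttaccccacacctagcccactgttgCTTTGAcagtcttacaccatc
Cd3e: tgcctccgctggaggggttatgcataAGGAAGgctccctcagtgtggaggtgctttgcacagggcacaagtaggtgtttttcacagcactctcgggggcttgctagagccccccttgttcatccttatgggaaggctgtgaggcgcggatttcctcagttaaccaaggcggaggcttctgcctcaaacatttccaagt
Cd8a: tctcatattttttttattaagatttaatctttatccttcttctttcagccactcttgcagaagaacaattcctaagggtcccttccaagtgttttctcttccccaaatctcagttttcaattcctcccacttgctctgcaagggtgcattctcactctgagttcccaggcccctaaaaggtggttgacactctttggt
Lcp2: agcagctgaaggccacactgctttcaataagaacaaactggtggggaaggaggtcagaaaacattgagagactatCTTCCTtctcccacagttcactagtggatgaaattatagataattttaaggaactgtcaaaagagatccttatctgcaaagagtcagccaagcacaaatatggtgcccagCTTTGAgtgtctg
Capitals mark 4 short motifs searched on both strands. AGGAAG is a core of ETS factor sites. TGTGGT is a core of RUNX sites, CTTTGA is a core of TCF and LEF sites, and CACCTG is an E-box. None of the 4 overlaps another in these stretches. Of 32851 mouse promoters in the RefSeq-based table, the same 198-base stretch held the ETS core in 23.7%, the RUNX core in 11.4%, the TCF and LEF core in 11.7% and the E-box in 14.3%. Cd3d held an ETS core 198 bases before the start site, an E-box at 112 and a TCF and LEF core at 73. Cd3e held an ETS core at 224 bases, and Lcp2 an ETS core at 175 and a TCF and LEF core at 65. None of the 4 was found in the Cd8a stretch. These letters are a description of the sequence, and binding was not measured.

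In order to determine how irradiation alone and with a burn changed these genes, each of the 4 irradiated groups was set against Sham. With edgeR (quasi-likelihood F test, Benjamini-Hochberg adjustment over the 426 genes), 9 of the 10 members were called lower in WBIR as well as in WBIR+MSC-EVs, 9 were in RCI, 8 were in RCI+MSC-EVs, and 0 were called higher in any group. Without Sham replicate 2, however, Lcp2 was called higher in all 4 groups. The background was high: 46.9% of all tested genes were called lower and 21.6% higher in WBIR, with 45.1% and 22.8% for WBIR+MSC-EVs, 43% and 26.5% for RCI, and 41.3% and 23.9% for RCI+MSC-EVs. The median log2FC of the 10 members was -2.37 for WBIR, -2.20 for WBIR+MSC-EVs, -2.02 for RCI and -1.60 for RCI+MSC-EVs, against -0.74, -0.61, -0.53 and -0.45 over all tested genes in that order. Groups without overlap were common too. For 9 of the 10 members the samples of each irradiated group lay apart from Sham, as did those of 71.1% of all tested genes for WBIR, 69% for WBIR+MSC-EVs, 64.6% for RCI and 70.4% for RCI+MSC-EVs, so lack of overlap with Sham does not set these genes apart. The 4 comparisons share the same 3 Sham samples, so they are not independent of each other. The size of the change ran from the CD8 genes, which fell most, through the CD3 chains, the kinases and Cd5, to Cd4, which fell least of the members called in WBIR and RCI, and Lcp2, which was not called.

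**Figure D1:**
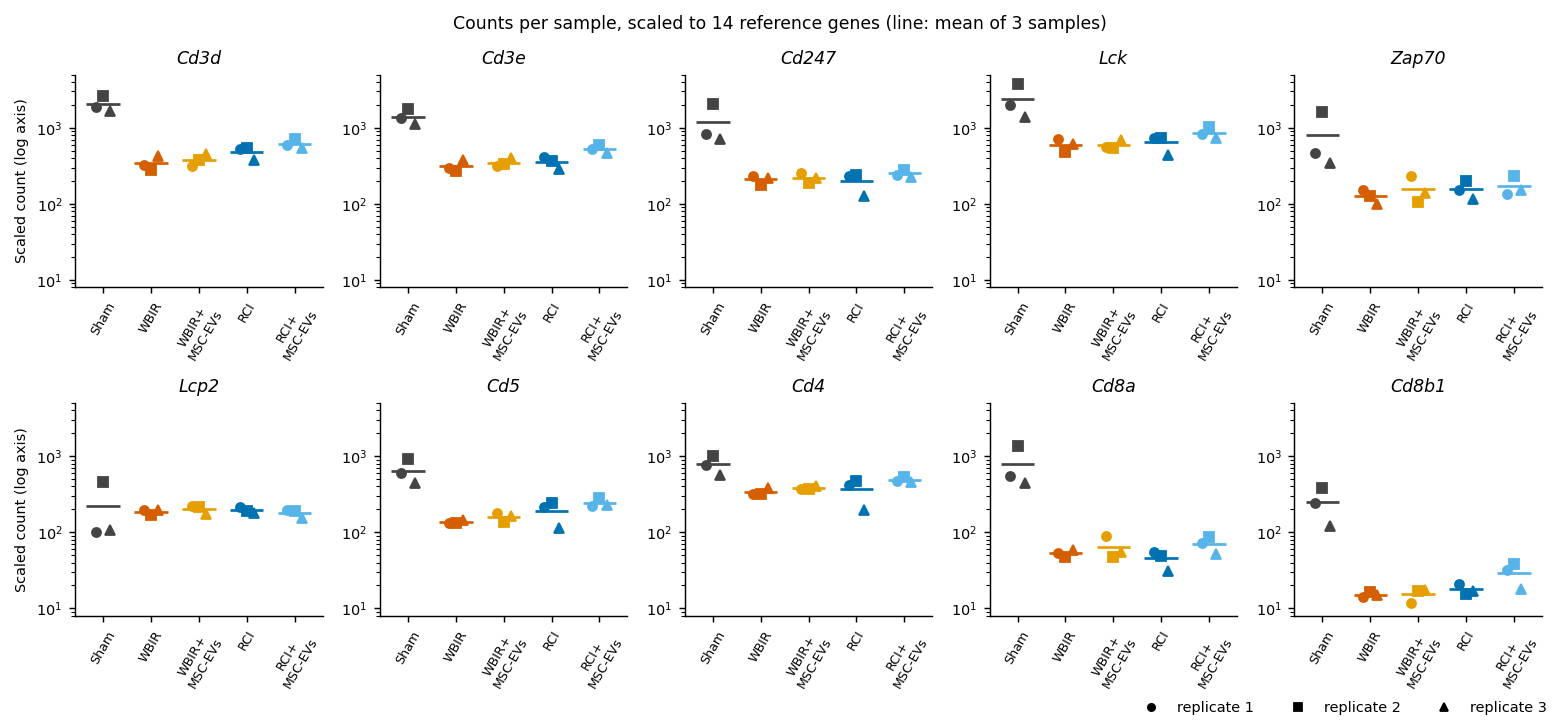
Counts of the 10 genes in every sample, scaled to the 14 reference genes, on a log axis by group. Points are samples (shape gives the replicate number) and lines are means of 3 samples. For 9 genes all 12 irradiated samples lie below all 3 Sham samples, and for Lcp2 Sham replicate 2, at 461, lies above every other sample. Lack of overlap between Sham and a single irradiated group, in either direction, was seen in 64.6% to 71.1% of all tested genes by group. The share of genes with all 12 irradiated samples below Sham was not counted.

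Cd3e encodes the epsilon chain, which is needed to assemble the receptor at the cell surface. It had 1355, 1737 and 1104 scaled counts in the 3 Sham samples (replicates 1 to 3), 295, 270.3 and 377 in WBIR, and 418, 367 and 288 in RCI. With MSC-EVs it had 315, 331 and 398 in WBIR+MSC-EVs and 519, 602 and 464 in RCI+MSC-EVs. No irradiated sample reached the lowest Sham value, and RCI+MSC-EVs was the highest of the irradiated groups. Relative to Sham, Cd3e stood at 22.5% in WBIR (log2FC -2.15 ± 0.23 SE, adjusted p 2.8e-06), 24.9% in WBIR+MSC-EVs (-2.0 ± 0.23, 5.91e-06) and 25.6% in RCI (-1.97 ± 0.23, 6.65e-06), with 37.8% in RCI+MSC-EVs (-1.40 ± 0.23, 0.000113). The direction and the call held in all 25 alternatives of the processing.

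Cd3d, the delta chain that pairs with epsilon, had 1860.4, 2587 and 1646 scaled counts in Sham, 328, 280.5 and 427 in WBIR, and 520.2, 548 and 373 in RCI. In WBIR+MSC-EVs it had 312, 381 and 454, and in RCI+MSC-EVs 589.7, 714 and 537. The order of the groups was that of Cd3e by their means, and Sham again lay above every irradiated sample. Cd3d fell by 2.55 on the log2 scale in WBIR (SE 0.26, adjusted p 1.7e-06), to 17% of Sham, and by 2.08 in RCI (SE 0.26, adjusted p 9.16e-06), to 23.6%. In the groups given MSC-EVs it stood at 18.8% (WBIR+MSC-EVs) and 30.2% (RCI+MSC-EVs) of Sham.

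Cd247 encodes the zeta chain, which carries most of the phosphorylation motifs of the receptor. Its Sham values were 817, 2058 and 718 scaled counts, with Sham replicate 2 far above the others. The irradiated samples lay between 129 and 280.5, all below the lowest Sham sample. Cd247 fell by 2.51 on the log2 scale in WBIR (SE 0.37, adjusted p 4.49e-05) and had a log2FC of -2.59 in RCI (SE 0.37, adjusted p 3.41e-05). Without Sham replicate 2 the log2FC of Cd247 was -1.87 for WBIR, -1.81 for WBIR+MSC-EVs, -1.95 for RCI and -1.61 for RCI+MSC-EVs, each still called.

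Lck and Zap70, the kinases that act in turn on the receptor's tails, fell in all 4 groups. Lck had 2011, 3802 and 1372 scaled counts in Sham and between 444 and 1018 in the irradiated samples, with no overlap. It fell by 1.99 on the log2 scale in WBIR (SE 0.34, adjusted p 0.000155) and had a log2FC of -1.90 in RCI (SE 0.34, adjusted p 0.000217). With samples left out in turn the log2FC of Lck came as near to 0 as -1.50 in WBIR and -1.40 in RCI, still called. Zap70 had 469.7, 1622 and 344 in Sham and between 100.3 and 232 in the irradiated samples. It fell by 2.69 in WBIR (SE 0.52, adjusted p 0.000417) and by 2.38 in RCI (SE 0.51, adjusted p 0.000889). In Sham replicate 2 it was higher than the sum of the other Sham samples. Without that sample the log2FC of Zap70 was -1.70 for WBIR, -1.40 for WBIR+MSC-EVs, -1.39 for RCI and -1.23 for RCI+MSC-EVs, each still called.

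Markers of NK cells were read beside these genes. Over 10 NK genes measured the summed scaled counts ranged from 1786.7 to 5985 in Sham, 2143 to 3914 in WBIR, 2201 to 4123 in WBIR+MSC-EVs, 1749.7 to 1879 in RCI, then 1563 to 2137 in RCI+MSC-EVs, and none of the 10 was at 3 counts or fewer throughout a group. Klra1 came near that level, with 1.54 to 3.31 scaled counts in Sham and 0.84 to 4.05 in WBIR, and was not tested. Among the 9 NK genes tested in WBIR against Sham 1 was called lower (Klrd1, -2.53) and 2 higher (Cd244, 2.07, and Gzmb, 2.25), and in RCI 3 were lower and 2 higher. The part of NK cells in the values of Lck, Zap70 and Cd247 was not tested.

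Cd5, which encodes a surface receptor that restrains T cell receptor signals, followed the CD3 chains. It had 591, 909 and 437 scaled counts in Sham and between 115 and 282 in the irradiated samples, with no overlap. It stood at 21.1% of Sham in WBIR (log2FC -2.24 ± 0.31 SE, adjusted p 2.46e-05), 24.6% in WBIR+MSC-EVs (-2.03 ± 0.31, 6.05e-05) and 29.6% in RCI (-1.75 ± 0.30, 0.000167), with 37.9% in RCI+MSC-EVs (-1.40 ± 0.30, 0.000993). B cell genes fell as well, with all 9 of the list called lower in each of the 4 groups and summed scaled counts of 16748 to 18748 in Sham against 971 to 1869 in the irradiated groups. The part of B cells in the Cd5 values was not tested.

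Cd8a and Cd8b1 encode the alpha and beta chains of CD8, the coreceptor of cytotoxic T cells, and fell more than the other members in each group. Cd8a had 548, 1340.1 and 449 scaled counts in Sham, 54.0, 47.6 and 58.1 in WBIR, and 55.6, 49.1 and 30.9 in RCI. In WBIR+MSC-EVs it had 88.3, 46.6 and 55.5, and in RCI+MSC-EVs 71.4, 87.4 and 52.1. The highest irradiated sample therefore lay far below the lowest Sham sample. Cd8a stood at 6.83% of Sham in WBIR (log2FC -3.86 ± 0.43 SE, adjusted p 3.63e-06), 8.15% in WBIR+MSC-EVs (-3.66 ± 0.43, 6.26e-06) and 5.80% in RCI (-4.11 ± 0.44, 2.64e-06), with 9.02% in RCI+MSC-EVs (-3.46 ± 0.42, 9.89e-06). Without Sham replicate 2 the log2FC of Cd8a was -3.22 for WBIR, -3.03 for WBIR+MSC-EVs, -3.47 for RCI and -2.83 for RCI+MSC-EVs, each still called.

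Cd8b1, which unlike Cd8a is used almost only by T cells, had 240.2, 385 and 119 scaled counts in Sham, 14.2, 16.2 and 15.2 in WBIR, and 20.6, 15.6 and 16.9 in RCI. In WBIR+MSC-EVs it had 11.8, 16.8 and 17.6, and in RCI+MSC-EVs 31.9, 37.9 and 18.1. These are few molecules: the raw counts were 4 to 38 in the 12 irradiated samples, so the exact size of the fall is limited by counting error. Cd8b1 fell by 4.0 on the log2 scale in WBIR (SE 0.42, adjusted p 2.26e-06) and had a log2FC of -3.78 in RCI (SE 0.41, adjusted p 3.5e-06), to 6.12% and 7.14% of Sham, and stood at 6.21% and 11.8% in WBIR+MSC-EVs and RCI+MSC-EVs. With samples left out in turn its log2FC came as near to 0 as -3.55 in WBIR and -3.33 in RCI, still called.

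Cd4, the coreceptor of helper and regulatory T cells, fell less. It had 768, 1007 and 561 scaled counts in Sham, 315, 317 and 387 in WBIR, and 419.7, 476 and 198 in RCI. In WBIR+MSC-EVs it had 374, 373 and 404, and in RCI+MSC-EVs 476, 524 and 458. All irradiated samples were below the lowest Sham sample, and RCI replicate 3 was the lowest of them. Cd4 stood at 43.6% of Sham in WBIR (log2FC -1.19 ± 0.29 SE, adjusted p 0.00213), 49.3% in WBIR+MSC-EVs (-1.02 ± 0.29, 0.00638) and 46.8% in RCI (-1.09 ± 0.29, 0.00368). In RCI+MSC-EVs, at 62.4% of Sham, the log2FC was -0.68 ± 0.29 and was not called (adjusted p 0.0504 by edgeR). DESeq2 called it (adjusted p 0.0437), as did the fits with the 7 least variable reference genes (log2FC -0.83), with a minimum mean of 50 counts (-0.68) and without Sham replicate 3 (-0.87), RCI replicate 2 (-0.68) or RCI replicate 3 (-0.67). With TMM scaling Cd4 was called in WBIR (log2FC -0.53, adjusted p 0.0321) and RCI (-0.65, 0.0109) but not in WBIR+MSC-EVs (-0.46, 0.0623) or RCI+MSC-EVs (-0.32, 0.176).

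Dendritic cells, of which subsets carry Cd4 or Cd8a, were followed by 6 genes. Itgax, which encodes CD11c, had 91.4 to 321 scaled counts in Sham and 166 to 366 in the irradiated samples, and was not called in WBIR (log2FC 0.62, adjusted p 0.16) or RCI (0.62, 0.161). Batf3, a factor of the CD8-positive subset, rose by 1.51 on the log2 scale in WBIR (adjusted p 0.002) and by 2.15 in RCI (adjusted p 0.000137), from only 9.2 to 31.8 scaled counts in Sham. Irf4 went the other way, with mean scaled counts of 230 in Sham, 63.1 in WBIR and 82.3 in RCI. Irf8 had means of 696, 683 and 717 in that order. Xcr1, with means of 10.3, 11.9 and 20.0, had too few counts to be tested. The summed level of the 6 genes was 12833 to 50818 in Sham and 2503 to 7963 in the irradiated groups, most of it from Cd74, which B cells also express. Of 5 tested, 2 were called lower and 1 higher in each irradiated group. None of the 6 was at 3 counts or fewer throughout a group. The part of dendritic cells in the coreceptor values was not tested.

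Lcp2 encodes the adaptor SLP-76. It had 102, 461 and 108 scaled counts in Sham, 194, 170.1 and 195 in WBIR, and 213, 191 and 177 in RCI. In WBIR+MSC-EVs it had 224, 216 and 174, and in RCI+MSC-EVs 195, 189 and 153. All 12 irradiated samples lay between the high Sham replicate 2 and the 2 lower Sham samples. With all 3 Sham samples its log2FC was -0.23 in WBIR (SE 0.44, 95% interval -1.21 to 0.76, adjusted p 0.65), -0.10 for WBIR+MSC-EVs, -0.17 for RCI and -0.29 for RCI+MSC-EVs, none of them called. Without Sham replicate 2 Lcp2 was called higher in all 4 groups, with log2FC 0.83 (adjusted p 0.00186), 0.96 (0.00078), 0.89 (0.00124) and 0.77 (0.00348). With TMM scaling of all samples the sign was also positive (0.60, 0.62, 0.49 and 0.23) without a call.

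Cells that also use Lcp2 were followed by their own markers. Of 8 macrophage and monocyte genes 7 were called higher in WBIR+MSC-EVs and 6 in each of the other irradiated groups, with summed scaled counts of 1989 to 2925 in Sham and 10394 to 36828 in the irradiated groups. Of 3 platelet genes measured (Itga2b, Ppbp, Gp1bb) 2 were called higher in WBIR and all 3 in RCI. Of 5 neutrophil genes tested 4 were called lower in WBIR and 4 in RCI. None of the macrophage, platelet or neutrophil genes was at 3 counts or fewer throughout a group. The neutrophil gene Camp came near that level in WBIR, with 1.68 to 5.15 scaled counts. The part of these cells in the Lcp2 values was not tested.

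**Figure D2:**
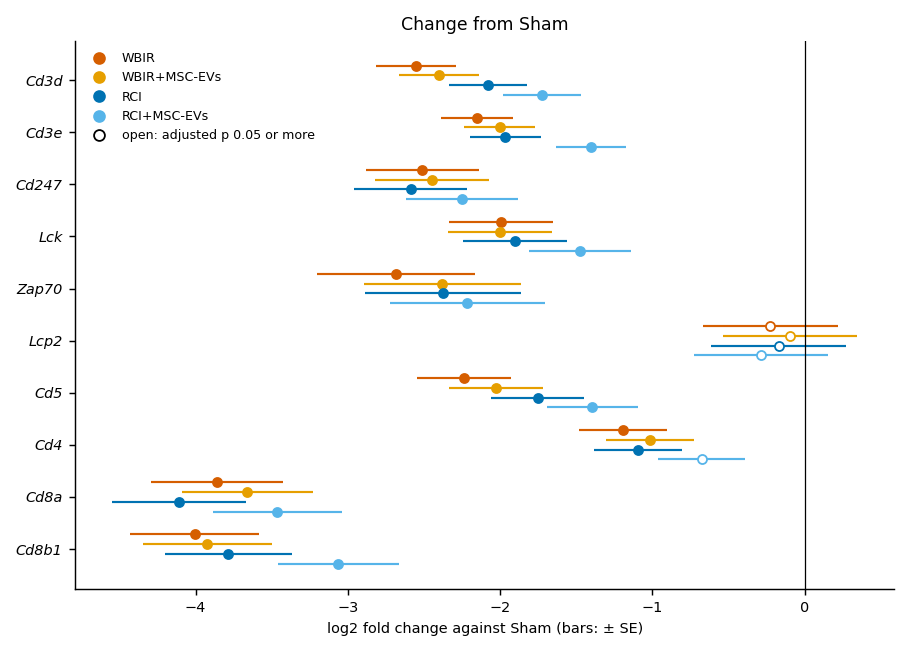
Log2FC of each gene against Sham in the 4 irradiated groups, with bars of ± SE, filled points for an adjusted p under 0.05 and open points otherwise. Cd8a and Cd8b1 lie between -4.11 and -3.06, Cd4 between -1.19 and -0.68, and the Lcp2 bars cross 0.

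The scaling cannot change how 2 genes of the same sample relate to each other, so 10 ratios of raw counts within a sample were compared between the 3 Sham and the 12 irradiated samples. A 2-sided exact permutation test over the 455 assignments was used, whose smallest p is 0.0022, with Benjamini-Hochberg adjustment over the 10 ratios. Probe pairs differ in efficiency, so only differences between groups are read from a ratio, and not its level. The ratio of Cd4 to Cd8a was 0.751 to 1.40 in Sham and 4.23 to 9.68 in the irradiated samples (median 6.67). It was 6.25-fold higher after irradiation (difference 2.64 on the log2 scale, exact p 0.0022, adjusted p 0.00549), with no overlap. How often ratios of other gene pairs part Sham from irradiated samples was not counted. Of single tested genes 64.6% to 71.1% had no overlap between Sham and 1 irradiated group, a weaker condition than for all 12 irradiated samples. The share of single genes for all 12 was not counted. Lack of overlap is not read as setting these ratios apart.

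Both coreceptors shifted against Cd3e. The ratio of Cd4 to Cd3e was 0.508 to 0.58 in Sham and 0.688 to 1.30 in the irradiated samples, a 1.85-fold rise (log2 difference 0.89, exact p 0.0022, adjusted p 0.00549). The ratio of Cd8a to Cd3e was 0.405 to 0.772 in Sham and 0.107 to 0.28 after irradiation, and fell by 1.76 on the log2 scale (exact p 0.0022, adjusted p 0.00549). Neither overlapped between Sham and irradiated samples. The ratio of Cd4 to Cd8a follows from these ratios to Cd3e, so they are not separate results. By group the log2 ratio of Cd4 to Cd8a was 0.13 ± 0.48 (SD, n = 3) for Sham, 2.67 ± 0.11 for WBIR, 2.65 ± 0.50 for WBIR+MSC-EVs, 2.96 ± 0.30 for RCI and 2.82 ± 0.28 for RCI+MSC-EVs, so the irradiated groups differed from each other by less than 1 SD of the most variable of them. Leaving out any 1 sample kept the log2 difference of Cd4 to Cd8a between 2.37 and 2.82.

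The CD8 chains were not shown to differ in their fall: the log2 ratio of Cd8b1 to Cd8a was -1.64 ± 0.39 (SD, n = 3) for Sham and -1.61 ± 0.51 (SD, n = 12) in the irradiated samples (exact p 0.941), on few Cd8b1 counts. With all samples Cd3d fell slightly more than Cd3e, but the call was lost in several alternatives. Their ratio was 1.37 to 1.49 in Sham and 0.991 to 1.49 after irradiation, a log2 difference of -0.31 (exact p 0.00879, adjusted p 0.0176), with overlap through RCI replicate 2 at 1.49. By group the log2 ratio of Cd3d to Cd3e was 0.13 ± 0.07 (SD, n = 3) for WBIR, 0.13 ± 0.12 for WBIR+MSC-EVs, 0.42 ± 0.14 for RCI and 0.21 ± 0.03 for RCI+MSC-EVs, against 0.54 ± 0.07 for Sham. Without Sham replicate 2 the difference was -0.29 (exact p 0.033, adjusted p 0.0549), and leaving out either of the other Sham samples ended the call too (both adjusted p 0.0659). It was also lost when Sham was set against the 6 irradiated samples without MSC-EVs (-0.26, exact p 0.0833, adjusted p 0.167).

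Lcp2 rose against Cd3e in every irradiated sample. The ratio was 0.0752 to 0.265 in Sham and 0.313 to 0.71 in the irradiated samples, a 4.05-fold rise (log2 difference 2.02, exact p 0.0022, adjusted p 0.00549) with no overlap even to Sham replicate 2. Without that sample the log2 difference was 2.56 (exact p 0.011, adjusted p 0.0275). By group the log2 ratio of Lcp2 to Cd3e was -0.74 ± 0.18 (SD, n = 3) for WBIR, -0.77 ± 0.37 for WBIR+MSC-EVs, -0.87 ± 0.15 for RCI and -1.56 ± 0.13 for RCI+MSC-EVs.

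The ratios of Lck, Zap70, Cd247 and Cd5 to Cd3e overlapped between Sham and irradiated samples. Their log2 differences were 0.13 for Lck (exact p 0.367), -0.25 for Zap70 (exact p 0.508), -0.43 for Cd247 (exact p 0.0593, adjusted p 0.0989) and 0.06 for Cd5 (exact p 0.708). Without Sham replicate 2 the value for Lck was 0.36 and passed the test (exact p 0.022, adjusted p 0.044), and that for Zap70 turned to 0.26 (exact p 0.418). The value for Cd247 was -0.12 without Sham replicate 2 (exact p 0.549, adjusted p 0.611) and -0.61 without Sham replicate 1 (exact p 0.044, adjusted p 0.0733). Sham replicate 2 had the highest ratio to Cd3e of the Sham samples for Lck, Zap70 and Cd247.

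**Figure D3:**
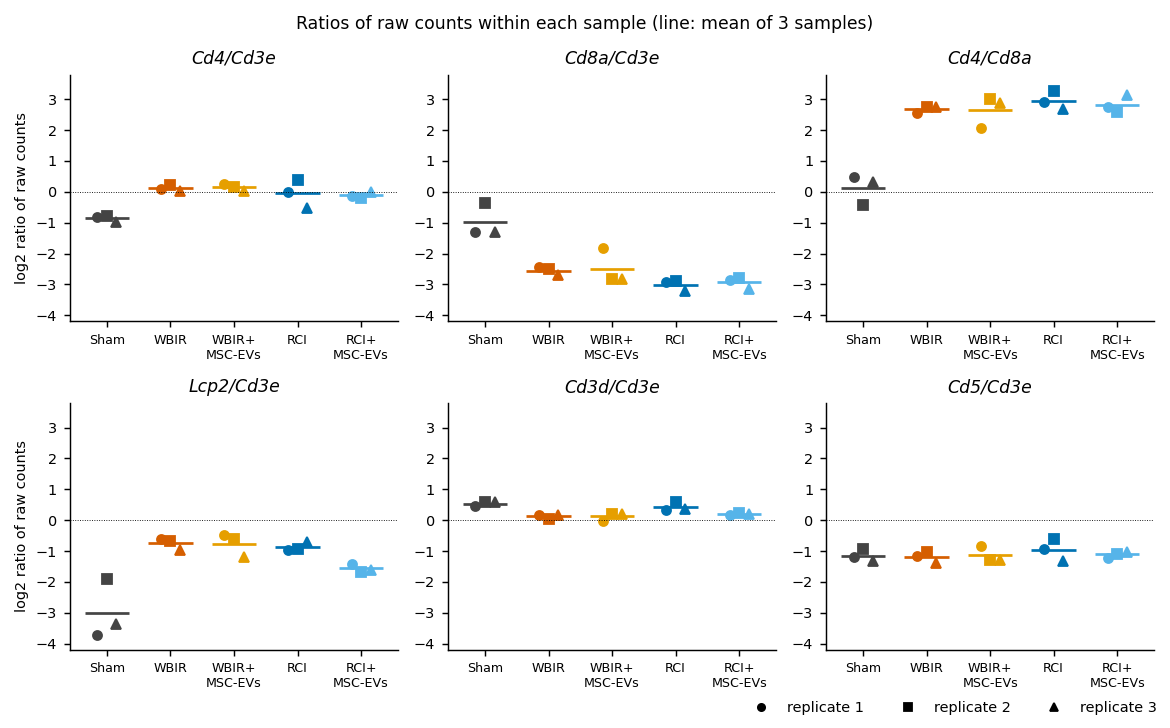
Log2 ratios of raw counts within each sample, by group. Points are samples, lines are means of 3 samples and the dotted line marks equal counts. Cd4 rises and Cd8a falls against Cd3e in all 12 irradiated samples, Cd4 to Cd8a lies above 2 in each of them, and Cd5 to Cd3e overlaps between all groups. Ratios of other gene pairs were not examined.

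Other genes of the pathway were counted from a list of 29, of which 18 were on the panel and all 18 were tested. Of the 18, 17 were called lower in RCI and 16 in each of the other irradiated groups, with 0 higher in any, beside the background given above. The median log2FC of the 18 was -1.88 in WBIR and -1.92 in RCI. Among partners at the cell surface, Cd28, the main costimulatory receptor, had a log2FC of -2.20 in WBIR (adjusted p 0.00206) and -2.37 in RCI (adjusted p 0.00118), on 8.05 to 47.1 scaled counts in the irradiated samples. The adhesion receptor Cd2 fell in both (log2FC -2.75 and -2.24, adjusted p 1.91e-05 and 9.05e-05), and without Sham replicate 2 its log2FC was -2.11 and -1.61. Cd6, a relative of Cd5, fell in both (log2FC -2.94 and -2.99, adjusted p 1.52e-05 and 1.3e-05).

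Of the signalling enzymes, Map4k1, a kinase that restrains receptor signals in T and B cells, fell in both (log2FC -3.36 in WBIR and -3.54 in RCI, adjusted p 3.96e-08 and 3.31e-08). It went from 584 to 843 scaled counts in Sham to 52.4 to 102 in the irradiated samples. The phosphatase gene Ptpn22 fell in both (log2FC -2.20 and -1.96, adjusted p 2.66e-06 and 7.48e-06). Ptprc, which encodes CD45 and is shared by all white blood cells, fell in both (log2FC -1.40 and -1.13, adjusted p 0.00195 and 0.00732), and Syk, the Zap70 relative of B and myeloid cells, did so too (log2FC -1.23 and -0.79, adjusted p 0.000966 and 0.0154). Without Sham replicate 2 the log2FC of Ptprc was -0.79 and -0.53, and in RCI Syk was then not called (-0.56, adjusted p 0.0716). Ptprc was not called in RCI under median-of-ratios scaling (-0.53, adjusted p 0.0699), nor with TMM and without Sham replicate 2 in WBIR (-0.38, adjusted p 0.0984) or RCI (-0.28, adjusted p 0.215). Syk was also not called without RCI replicate 1 (adjusted p 0.0667) or RCI replicate 2 (0.0683).

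The Lck relative Fyn was not called in WBIR (log2FC -0.23 ± 0.23, adjusted p 0.376) and was called lower in RCI (-0.67 ± 0.23, adjusted p 0.0182). Its WBIR sign depended on the scaling, with 0.45 and a call (adjusted p 0.012) under TMM, and its RCI call was lost under TMM (-0.18, adjusted p 0.278), without Sham replicate 2 (-0.38, adjusted p 0.0971) or RCI replicate 3 (-0.51, adjusted p 0.0624). Ptpn6, a phosphatase of all blood cells, was not called (-0.01 and 0.46, adjusted p 0.975 and 0.12), although in RCI it was called without Sham replicate 1 (0.72, adjusted p 0.0246) and under TMM scaling (0.96, adjusted p 0.017). The calcium-responsive factor genes fell in both injuries, Nfatc1 with log2FC -1.86 and -1.90 (adjusted p 5.79e-05 and 4.7e-05), Nfatc2 with -1.22 and -1.30 (0.00383 and 0.00256) and Nfatc3 with -1.21 and -1.42 (0.000682 and 0.000204). Under TMM scaling Nfatc2 (-0.49, adjusted p 0.0834) and Syk (-0.56, adjusted p 0.108) were not called in WBIR, nor was Syk in RCI (-0.21, adjusted p 0.535). Nfatc2 lost its call in 4 of 25 alternatives in WBIR and in 1 of 25 in RCI. With samples left out in turn its log2FC came as near to 0 as -0.70 in WBIR and -0.78 in RCI.

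A separate list of T cell identity genes had 14 measured, of which 4 are also in the pathway list, and all 14 were called lower in each of the 4 irradiated groups. Their summed scaled counts were 19015 to 35366 in Sham and 2336 to 4932 in the irradiated groups. Il7r, the interleukin 7 receptor that resting T cells need for survival, had a log2FC of -4.51 in WBIR and -3.95 in RCI (adjusted p 7.6e-08 and 3.3e-07). In WBIR this was further from 0 than that of any member. In RCI it was further from 0 than that of Cd8b1 but not of Cd8a (-4.11). Ccr7, a chemokine receptor of naive T cells that B cells carry too, had a log2FC of -2.92 in WBIR (adjusted p 1.7e-06).

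To see which other genes followed the receptor, the centred log2 profile of each tested gene was compared with that of Cd3e by its root mean square distance. Over the 15 samples the members nearest to Cd3e were Cd3d (0.18), Cd5 (0.21) and Lck (0.22), ahead of every other of the 425 genes. The distance was 0.78 for Cd8a and 0.94 for Lcp2, where the median over all genes was 0.80. A gene that did not change at all would lie at 0.82, the root mean square of the Cd3e profile itself. The distance also counts a larger fall in the same samples, as that of Cd8a was, so it does not measure likeness of direction alone. The 8 nearest other genes were Sh2d1a (0.26), Thy1, Il27ra, Casp2, Il17ra, Cd40lg, Map4k4 and Folr4 (0.29). Over the 12 irradiated samples alone, where the fall from Sham plays no part, the nearest were Ets1 (0.13), Btla, Il27ra, Il17ra, Igf2r, Cd2, Thy1 and Map4k1 (0.18), with Cd3d at 0.14 and Lck at 0.17, and a median over all genes of 0.42. Thy1, Il27ra and Il17ra were in both sets. These distances are descriptions across samples that share groups and a scaling.

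The burn was examined by comparing RCI with WBIR. The methods describe anaesthesia, morphine and fluid resuscitation for the RCI procedure but not for WBIR mice. The comparison takes in the burn together with these, and their separate parts were not tested. Of the 426 genes 0.704% were called, and 0 of the members were among them by edgeR, with 0 members and 71 genes in all at an unadjusted p under 0.05 and 0 members called by DESeq2 or limma. The largest differences among the members were in Cd5 (log2FC 0.48, 95% interval -0.18 to 1.15, adjusted p 0.408) and Cd3d (0.47, -0.08 to 1.03, adjusted p 0.355), both higher in RCI. Cd8a was lower in RCI (-0.25, 95% interval -1.16 to 0.66, adjusted p 0.834). For each of the 10 genes the samples of both injuries overlapped, while 27.0% of all tested genes had no overlap.

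To evaluate MSC-EV treatment, treated and untreated samples of each injury were compared. In WBIR 0% of the 426 genes were called, and 0 of the members were called by edgeR, DESeq2 or limma, with 0 members and 11 genes in all at an unadjusted p under 0.05. The members' log2FC lay between -0.01 for Lck (95% interval -0.74 to 0.73) and 0.31 for Zap70 (-0.81 to 1.42), with a median of 0.15 against 0.11 over all genes. Cd3e was 0.15 ± 0.23 (SE). The treated and untreated WBIR samples overlapped for every member, and 8.92% of all tested genes had no overlap.

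In RCI 0% of genes were called as well, with 0 of the members called by edgeR, DESeq2 or limma, and 1 member among 14 genes at an unadjusted p under 0.05. That member was Cd3e, with 418, 367 and 288 scaled counts without and 519, 602 and 464 with MSC-EVs. The groups did not overlap and the treated mean was 1.48-fold the untreated one (log2FC 0.56 ± 0.23 SE, edgeR p 0.0256, adjusted p 0.989), higher in 3 of 3 treated samples than in any untreated one. Non-overlap of these 2 groups was seen in 10.8% of all tested genes. Without RCI replicate 3 the Cd3e value was 0.43 (edgeR p 0.0842), and without RCI+MSC-EVs replicate 2 it was 0.46 (edgeR p 0.0967).

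The other members in RCI pointed mostly the same way without passing the test. Cd8b1 was 0.72 ± 0.40 (SE), with 20.6, 15.6 and 16.9 untreated and 31.9, 37.9 and 18.1 treated scaled counts, and Cd8a was 0.65 ± 0.41. Lck was 0.43 ± 0.33, Cd4 0.42 ± 0.29, Cd5 0.36 ± 0.30, Cd3d 0.35 ± 0.25, Cd247 0.34 ± 0.36 and Zap70 0.16 ± 0.49, while Lcp2 was -0.11 ± 0.44. Their 10 values are not independent, since the genes are carried by the same cells and share 6 samples. The median of the 10 was 0.39 against 0.12 over all genes. RCI replicate 3 had the lowest value of the 3 untreated samples for 9 of the members, all but Cd8b1, and also stood apart in Marco, a macrophage receptor gene, with 27539 scaled counts against 3187 in the lowest RCI sample. The share of all tested genes that were lowest in RCI replicate 3 was not counted. Its scaling factor was 1.72 on a total of 484525 counts, against 1.12 on 387724 and 0.83 on 294960 in RCI replicates 1 and 2.

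Averaged over both injuries, the MSC-EV effect called 0% of genes and 0 members by edgeR, DESeq2 or limma, and 1 member, Cd3e, had an unadjusted p under 0.05 (log2FC 0.36 ± 0.16 SE, edgeR p 0.0426, adjusted p 0.984). The difference between the MSC-EV effects in RCI and WBIR, tested as an interaction, called 0% of genes and 0 members, with 0 members at an unadjusted p under 0.05. It was 0.42 ± 0.32 (SE) for Cd3e and 0.64 ± 0.59 for Cd8b1 (both adjusted p 0.998), so the MSC-EV effects in the injuries were not shown to differ.

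**Figure D4:**
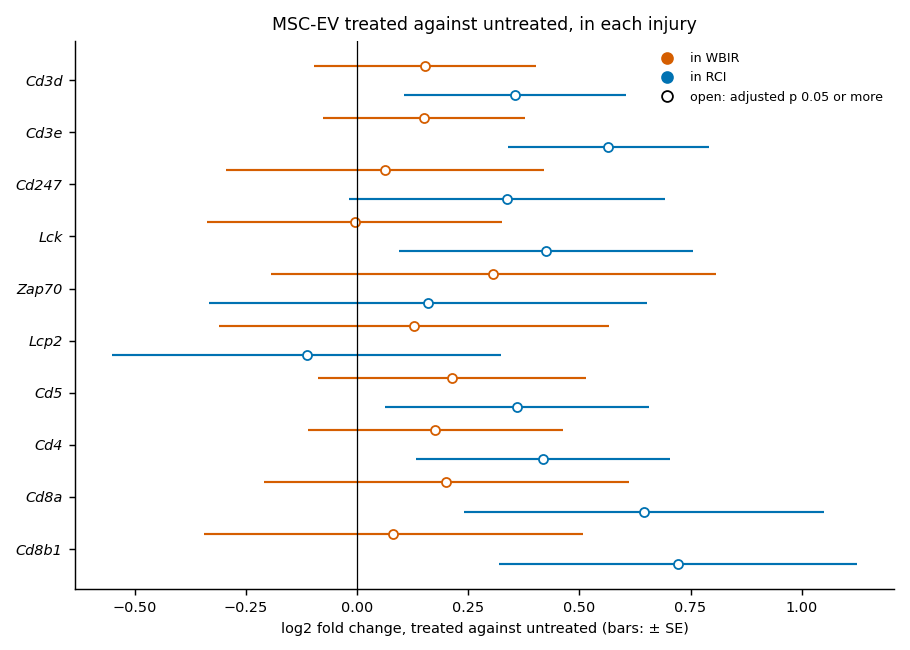
Log2FC of MSC-EV treated against untreated samples for each gene, in WBIR and in RCI, with bars of ± SE. All points are open (adjusted p of 0.05 or more), with RCI values from -0.11 (Lcp2) to 0.72 (Cd8b1) and WBIR values from -0.01 (Lck) to 0.31 (Zap70).

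Of the pathway list, 0 of the 18 genes were called in either MSC-EV comparison. Map4k1 had 52.4 to 67.1 scaled counts in RCI and 89.4 to 102 in RCI+MSC-EVs, without overlap (log2FC 0.72 ± 0.21 SE, edgeR p 0.00342, adjusted p 0.848). Nfatc3 was 0.48 ± 0.25 and Cd2 0.43 ± 0.35 in the same comparison. The T cell identity list had a median log2FC of 0.42 in RCI+MSC-EVs against RCI and the B cell list 0.43, against 0.12 over all genes. In WBIR+MSC-EVs against WBIR the medians were 0.10 and -0.04, against 0.11 over all genes. In both comparisons 0 genes of either list were called.

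**Figure D5:**
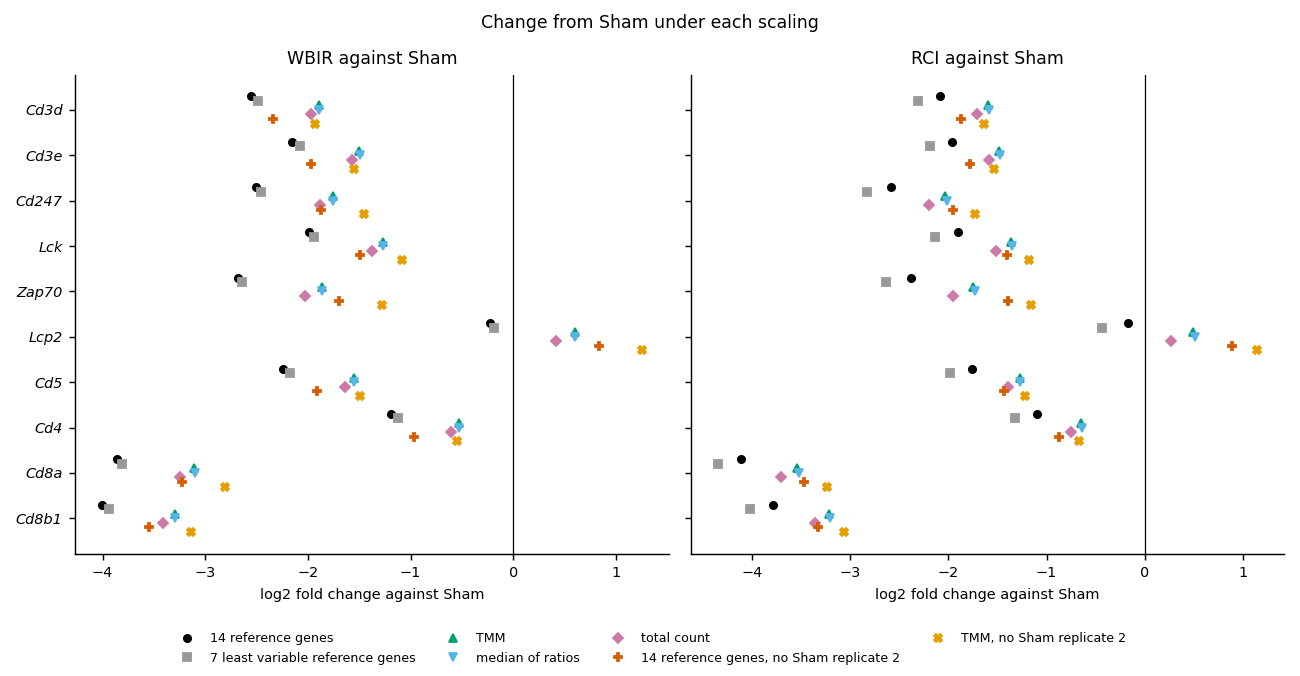
Log2FC against Sham in WBIR (left) and RCI (right) for each gene under 5 scalings, and without Sham replicate 2 under 2 of them. For 9 genes every setting is below 0, and for Lcp2 the values lie on both sides of 0, from -0.23 to 1.25 in WBIR.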

How the data were processed

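Spleen RNA of 15 samples was measured on the nCounter panel, and group and replicate number came from the labels. The authors deposited raw barcode counts, judged raw here because they are whole numbers with unequal totals, and normalised such counts in nSolver for their own tests. The smallest value was 1, and background was not subtracted. Samples were scaled to 14 reference genes, and 426 of 547 endogenous genes, those averaging 20 counts or more, were tested with edgeR 4.0.16 in R 4.3.3 (glmQLFit, robust, 1 coefficient per group, 10 residual degrees of freedom, two-sided, adjusted within each of 9 comparisons, calls at an adjusted p under 0.05). The coefficient of variation between replicates was 33.1%, and genes with few counts are limited by counting error. Ratios were tested by exact permutation (scipy 1.17.1). Both were run on simulated data. For the edgeR fit the simulated reference genes were steady, unlike those here, so the scaling was not tested by it. Alternatives were other scalings and filters, DESeq2 1.42.0, limma 3.58.1 on log2(scaled count + 10), a replicate block and each sample left out. The named genes were the 10 members, 12 pathway genes and those nearest to Cd3e, and other genes were named after their values were seen. The members and gene lists were chosen with earlier results of these data known. Same-numbered samples deviated from their group means with correlations of -0.49 to 0.68 (11 of 30 pairs over 0.1), so numbers were not taken to pair samples. Positions and promoters are RefSeq's (GRCm38.p6). Cartridges were not analysed here.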

Additional observations from a re-analysis of the deposited data

How the results depend on the processing

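Of 225 recomputed counts of called members, over 9 comparisons, all stayed within 1.5 times the first value, or at 0 where it was 0. This is a weak check, since from 9 of 10 members called no rise could pass that limit. The count also takes no account of direction. Without Sham replicate 2 Lcp2 was called higher against Sham in all 4 groups, and the count did not show it as moved. Of 180 recomputed ratios 167 kept their direction and side of the threshold, as did 1986 of 2073 recomputed single-gene values. Among the ratios, Cd3d to Cd3e was -0.26 (exact p 0.0833, adjusted p 0.167) when Sham was set against the 6 irradiated samples without MSC-EVs, and with each sample left out in turn it lay between -0.35 and -0.29. Leaving out samples in turn gave -0.044 to 0.36 for Lck to Cd3e, -0.53 to 0.26 for Zap70 to Cd3e, -0.61 to -0.12 for Cd247 to Cd3e, -0.033 to 0.17 for Cd5 to Cd3e and -0.11 to 0.25 for Cd8b1 to Cd8a.

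The sign of Lcp2 against Sham turned positive under endogenous scalings. Its log2FC under TMM, median-of-ratios and total count scaling was 0.60, 0.60 and 0.42 in WBIR, 0.62, 0.63 and 0.46 in WBIR+MSC-EVs, 0.49, 0.51 and 0.27 in RCI, and 0.23, 0.21 and 0.065 in RCI+MSC-EVs. With limma the Lcp2 values were 0.096, 0.22, 0.15 and 0.034. With TMM and without Sham replicate 2, an alternative chosen after seeing the data, they were 1.25, 1.27, 1.15 and 0.88. Leaving out samples in turn, Lcp2 ranged from -0.58 to 0.83 in WBIR, -0.45 to 0.96 in WBIR+MSC-EVs, -0.53 to 0.89 in RCI and -0.64 to 0.77 in RCI+MSC-EVs.

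In WBIR against Sham, Fyn was 0.45 under TMM, 0.45 under median of ratios, 0.37 under total count and 0.48 with TMM and without Sham replicate 2, and -0.38 to 0.060 with samples left out. Ptpn6 in the same comparison was 0.59, 0.59, 0.56 and 0.41 under those settings, 0.075 with the 7 least variable reference genes, 0.040 with limma, and -0.23 to 0.25 with samples left out. For MSC-EVs in WBIR, Lck was 0.0031 with limma and -0.14 to 0.12 with samples left out, and Zap70 was -0.033 to 0.54. For MSC-EVs in RCI, Zap70 was -0.0075 under median of ratios and -0.11 to 0.38 with samples left out. The cause was not tested.

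With the replicate number as a block, 9, 9, 9 and 8 members were called against Sham and 0 in each other comparison, the same counts as without it. The pairing moved the sign of 1 named value, Lcp2 in WBIR+MSC-EVs against Sham, to 0.037. Precision is limited by the 3 samples per group, by Sham replicate 2 and by the low counts of Cd8b1.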
